A study of Mus musculus with 12 samples.

Results

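The CC chemokine genes analysed here were *Ccl2*, *Ccl3*, *Ccl4*, *Ccl5*, *Ccl6*, *Ccl7*, *Ccl9*, *Ccl12*, *Ccl22* and *Ccl24*, 10 of the 12850 genes in the expression table. They were chosen by name and family, with earlier results of these data known, and all 10 were listed. The RNA came from thioglycollate-elicited peritoneal exudate cells (PECs), the leukocytes that enter the peritoneal cavity of a mouse after injection of an irritant broth. PECs of C57BL/6 mice were either wild type (WT) or homozygous for the knock-in allele *Zc3h12a* S513A (S513A). *Zc3h12a* encodes Regnase-1, an endoribonuclease that degrades inflammatory mRNAs, and S513A replaces 1 of its serines with alanine in every cell of the animal. PECs of both genotypes received LPS, a bacterial cell wall component sensed by TLR4, at 100 ng/ml for 0, 4 or 8 hr. Each of the 6 combinations of genotype and time had 2 libraries of polyadenylated RNA, 12 in all. The labels give no age and do not say whether the libraries of a group came from separate mice or cultures, so p-values measure the spread between these libraries, which may be technical.

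CC chemokines are small secreted proteins that draw leukocytes into tissue by binding G protein-coupled receptors on their surface. Macrophages are a main source of them after contact with bacterial products, and different members call in different cells: monocytes, neutrophils, T cells, dendritic cells or eosinophils. Several of their mRNAs carry AU-rich elements in the 3′ untranslated region (3′ UTR), through which RNA-binding proteins shorten the life of the message.

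Of the 10 genes, 8 lie on mouse chromosome 11 in 2 groups, shown by GENCODE vM21 coordinates on GRCm38. The first holds *Ccl2* (chr11:82035571-82037453), *Ccl7* (chr11:82045712-82047525) and *Ccl12* (chr11:82101845-82103400) on the plus strand. The second, 1422 kb further on, holds *Ccl5* (chr11:83525778-83530518), *Ccl9* (chr11:83572919-83578636), *Ccl6* (chr11:83587882-83593087) and *Ccl3* (chr11:83647844-83649355) on the minus strand and *Ccl4* (chr11:83662584-83664683) on the plus strand. *Ccl22* lies at chr8:94745590-94751699 on the plus strand and *Ccl24* at chr5:135569937-135573049 on the minus strand. *Ccl9* and *Ccl6* are 9.25 kb apart. The longest run of identical bases between the transcripts of any 2 members was 25 bases, shared by *Ccl6* and *Ccl9*. *Ccl2* overlaps the antisense gene *Gm17268* and *Ccl6* lies opposite *E230016K23Rik*, and because reads were mapped as unstranded, and the strand setting of counting is not given in the sources used here, reads of such partners cannot be told apart. *E230016K23Rik* held 1 to 15 reads per library and *Ccl6* held 766 to 6152.

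The promoters of *Ccl6* and *Ccl9* are shown because these neighbours lay on opposite sides of their 0 hr level after 8 hr of LPS. They come from RefSeq (GRCm38.p6) and run from 250 bases before to 50 bases after the annotated start, on the minus strand, at chr11:83593038-83593337 for *Ccl6* and chr11:83578587-83578886 for *Ccl9*. Capitals mark the stretch that aligned between them, of 74 columns with 58 identical bases (78.4%) and 7 gaps. With the annotated start at 0, it ran from -59 to 14 in *Ccl6* and from -18 to 48 in *Ccl9*.
Ccl6: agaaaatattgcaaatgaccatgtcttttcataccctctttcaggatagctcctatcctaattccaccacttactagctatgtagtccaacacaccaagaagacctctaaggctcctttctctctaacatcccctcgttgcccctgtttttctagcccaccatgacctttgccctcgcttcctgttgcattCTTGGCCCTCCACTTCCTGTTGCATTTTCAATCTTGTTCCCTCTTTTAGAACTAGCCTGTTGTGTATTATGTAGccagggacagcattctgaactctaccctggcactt
Ccl9: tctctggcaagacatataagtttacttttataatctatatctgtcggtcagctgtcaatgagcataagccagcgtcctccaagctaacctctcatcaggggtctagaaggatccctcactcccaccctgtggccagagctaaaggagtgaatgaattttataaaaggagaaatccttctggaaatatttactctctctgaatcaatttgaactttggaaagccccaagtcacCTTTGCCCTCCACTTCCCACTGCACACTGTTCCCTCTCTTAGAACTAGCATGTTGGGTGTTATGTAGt

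Promoter sequence was matched for 5 of the 10 genes, *Ccl3*, *Ccl6*, *Ccl9*, *Ccl12* and *Ccl22*, and 6 motifs were searched on both strands. The *Ccl9* promoter held a match to the kappaB consensus (present in 4.51% of all 32851 promoters of the same length), the AP-1 motif TGANTCA (7.81%) and TATAAA (13.6%), all in the lower-case part above. *Ccl12* held TATAAA at 31 bases before its start and the PU.1 motif GAGGAA (28.3% of promoters) at 130 bases before it, and *Ccl3* held GAGGAA on the opposite strand. Neither *Ccl6* nor *Ccl22* held any of the 6 motifs in this window, and no member held the ISRE GAAANNGAAA (3.44%) or the GAS motif TTCNNNGAA (8.30%). A match is a sequence description and says nothing of factor binding.

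Sites in the 3′ UTRs are shown because mRNA decay is the activity of Regnase-1 and of the AU-rich element binding proteins. The pentamer ATTTA, the core of AU-rich elements, occurred 5 times in the 167-base 3′ UTR of *Ccl12* (29.9 per kb), 5 times in that of *Ccl3* (12.2 per kb) and 2 times in that of *Ccl4* (6.62 per kb). The median over 10996 tested genes with a 3′ UTR of GENCODE vM21 was 1.34 per kb. *Ccl5* and *Ccl24* held none, and the remaining members held 1.10 to 4.60 per kb. The longer TATTTAT was present in *Ccl3*, *Ccl4*, *Ccl12* and *Ccl22*, and in 30.3% of all those 3′ UTRs. In 4 members, 2 pentamers, in capitals, fell within 30 bases. The share of all 3′ UTRs with such a pair was not determined, so these windows are a sequence description only. These windows lay on the minus strand at chr11:83648075-83648104 in *Ccl3*, chr11:83588723-83588752 in *Ccl6* and chr11:83573242-83573271 in *Ccl9*, and on the plus strand at chr11:82103325-82103354 in *Ccl12*.
Ccl3: ttgaaattttATTTAATTTAatcctattgg
Ccl6: ttatagatATTTAaagcATTTAtccttctg
Ccl9: gtccATTTAtacagtggatctcATTTActg
Ccl12: ATTTAaacaaacttgcttaaataatATTTA

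Regnase-1 is known to act on stem-loops whose 3-base loop reads pyrimidine, purine, pyrimidine. A search for 5 perfect base pairs closing such a loop found 1 in the 3′ UTR of *Ccl2* (chr11:82037431-82037443, plus strand), 1 in that of *Ccl4* (chr11:83664581-83664593, plus strand) and none in the other 8 members. Such a hairpin was present in 24.6% of all 3′ UTRs searched. Capitals mark the loop.
Ccl2: aaataTATtattt
Ccl4: tctccCATggaga

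The libraries held 9525979 to 12439960 reads on listed genes, with a median of 11137241. Values were log2 CPM, the reads of a gene scaled to a common library total. All 12 libraries entered 1 limma fit over 11885 genes that reached 1 CPM in 2 or more libraries, in which a gene was called at a Benjamini-Hochberg adjusted p below 0.05. All 10 members passed this filter, but *Ccl12* did so only through its 2 WT libraries of 8 hr, so that its calls and differences that use these libraries are no support, and *Ccl7* and *Ccl24* reached 1 CPM in 9 of 12 libraries. The 8 macrophage markers were all listed, with summed levels of 16754 to 27848 CPM. Of 7 T or NK cell markers 1 was listed, at 0.523 to 2.16 CPM, and of 8 neutrophil markers 3, at 489 to 829 CPM. Of 5 mesothelial markers 4 were listed, at 0.541 to 3.41 CPM. The other markers of these lists were not among the listed genes and could not be analysed. B cell markers (4 of 5 listed) summed to 3.44 to 8.87 CPM, mast cell markers (4 of 6) to 1.76 to 3.84 and dendritic cell markers (5 of 6) to 667 to 1062. In bulk RNA, fewer cells of a type and less RNA per cell cannot be told apart. The S513A allele changes coding sequence, so the RNA level of *Zc3h12a* does not check the genotype labels.

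LPS raised 8 of the 10 CC chemokine genes at 4 hr and left a different set of levels at 8 hr. *Ccl4*, *Ccl5* and *Ccl3* rose by 87.7-, 52.8- and 34.5-fold at 4 hr, the largest fitted rises of the 10. By 8 hr *Ccl4* and *Ccl3* had fallen back by 11.7- and 4.40-fold from their 4 hr levels, while *Ccl5* was 60.7-fold above its 0 hr level. *Ccl6* moved the other way and was 2.84-fold lower at 8 hr than at 0 hr. *Ccl24* was not called in any LPS comparison.

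Between 0 and 4 hr, as the mean of both genotypes (4 against 4 libraries), 8 members were called higher and 0 lower by limma, where 29.1% of all genes tested were called higher and 26.7% lower. At an unadjusted p below 0.05 the count lower was also 0, and limma with voom weights also gave 8 higher and 0 lower. The median log2 difference of the 10 members was 3.69, and 3.44 with *Ccl12* set against a floor of 3 reads per library at 0 hr, beside 0.02 over all genes tested. Without *Ccl12*, 7 of 9 members were called higher and the median was 3.47. Between 0 and 8 hr, 8 members were called higher and 1 lower, where 24.5% and 21.6% of all genes were. The median was then 2.92, and 2.87 with *Ccl12* at the floor, beside -0.000702 over all genes. Without *Ccl12*, 7 of 9 were called higher, with a median of 2.91. These comparisons share the 0 hr libraries. Between 4 and 8 hr, 6 members were called lower and 0 higher, where 12.8% of all genes were called in each direction, and the median was -0.74 beside -0.02. No member was higher at an unadjusted p below 0.05 or with voom weights, which called 7 lower, but quantile normalization called *Ccl5* higher. The libraries of 0 and 4 hr did not overlap for 8 members and for 49.1% of all genes, those of 0 and 8 hr for 9 members and 43.7%, and those of 4 and 8 hr for 3 members and 23.6%. The 9 include *Ccl12*, which passed the filter only through its WT libraries of 8 hr, so its separation at 8 hr is no support.

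**Figure D1:**
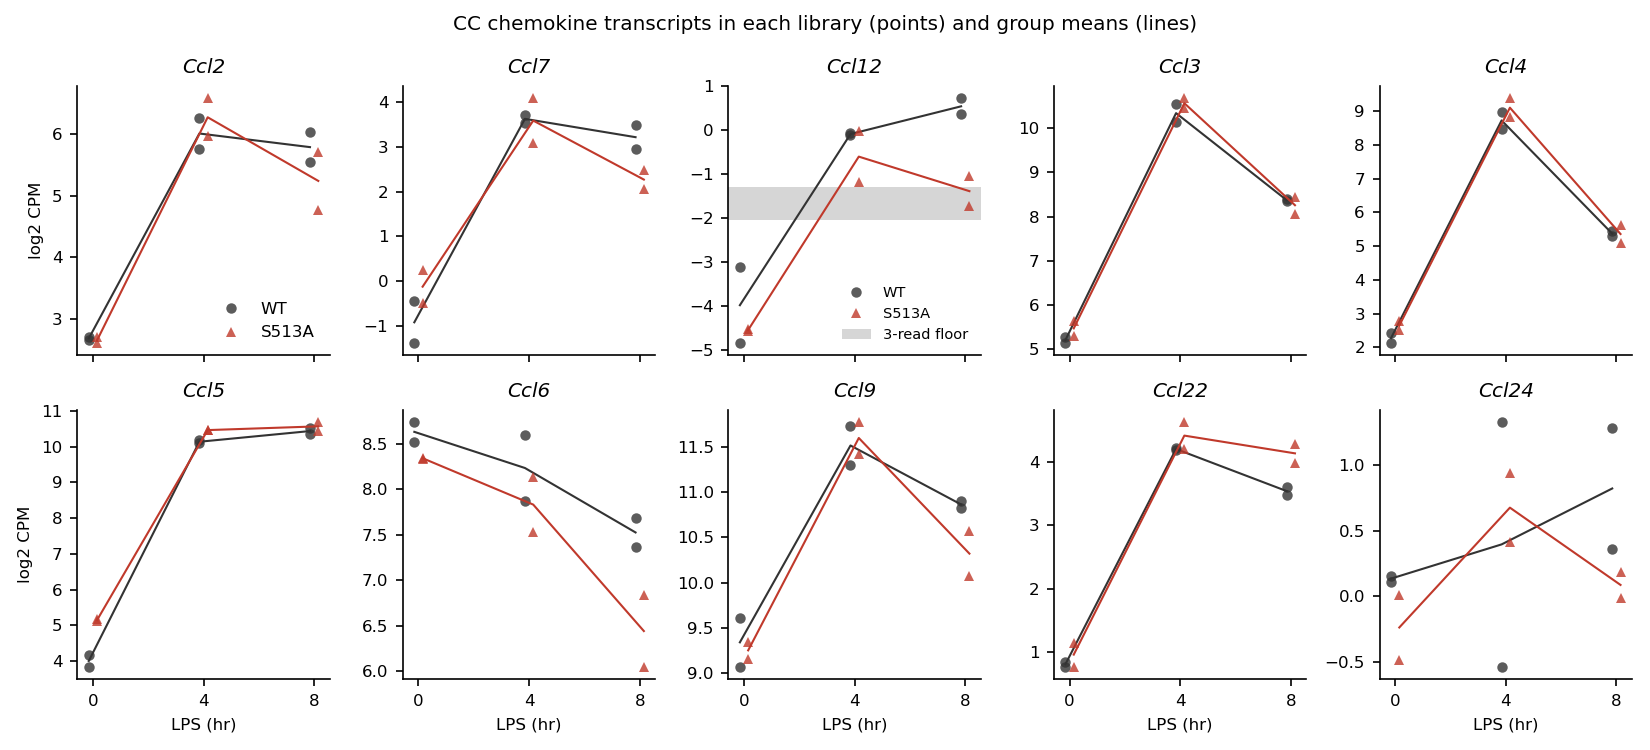
Deposited log2 CPM (y axis, a separate scale in each panel) of each CC chemokine gene against hours of LPS (x axis) in each library, with circles for WT, triangles for S513A and lines through the means of 2 libraries. *Ccl3* and *Ccl4* are highest at 4 hr, *Ccl5* stays high at 8 hr, *Ccl6* falls, and the 0 hr points of *Ccl12* lie below the grey band of the 3-read floor.

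*Ccl2*, *Ccl7* and *Ccl12* encode ligands of CCR2 that recruit monocytes from the blood. *Ccl2* was at 6.51 and 6.35 CPM in the WT libraries and 6.10 and 6.50 in the S513A libraries at 0 hr. At 4 hr it was at 76.2 and 54.2 CPM in WT and 62.3 and 95.4 in S513A PECs, and at 8 hr at 46.5 and 65.4 in WT and 27.3 and 52.1 in S513A PECs. Every stimulated library lay above every 0 hr library, and those of 4 and 8 hr overlapped. The log2 difference was 3.47 (SE 0.21, limma adjusted p = 1.92e-07) at 4 hr and 2.84 (SE 0.21, limma adjusted p = 1.2e-06) at 8 hr. From 4 to 8 hr it was -0.63 (SE 0.21, limma adjusted p = 0.0555), which passed the threshold with voom weights (0.0477) and without WT 4 hr replicate 2, S513A 4 hr replicate 1 or S513A 8 hr replicate 2.

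*Ccl7* was scarce before LPS, with 5 and 9 reads in the WT and 13 and 8 in the S513A libraries. It reached 13.2 and 11.6 CPM in WT and 8.51 and 17.0 in S513A PECs at 4 hr. At 8 hr it stood at 7.74 and 11.2 CPM in WT and 4.18 and 5.58 in S513A PECs. All 8 stimulated libraries lay above all 0 hr libraries, with log2 differences of 4.13 (SE 0.29, limma adjusted p = 5.04e-07) at 4 hr and 3.27 (SE 0.29, limma adjusted p = 4.25e-06) at 8 hr. The fall from 4 to 8 hr, -0.86 (SE 0.29, limma adjusted p = 0.0498), sat at the threshold, and was still called only without either WT 0 hr library or without S513A 4 hr replicate 1 among the 12 refits that left out 1 library.

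*Ccl12* was counted with 0 and 1 reads in the WT and 0 in both S513A libraries at 0 hr, at or under the floor of 3 reads. At 4 hr the counts were 10 and 10 in WT and 4 and 8 in S513A, and at 8 hr 17 and 13 in WT and 3 and 4 in S513A. All stimulated libraries lay above the 0 hr libraries, and at 8 hr both WT libraries lay above both S513A libraries. Summed over 4 libraries, 32 reads at 4 hr against 1 read at 0 hr gave a ratio of rates of 39.5 (exact 95% interval 6.60 to 1609.6, counting error only). The fitted rise at 4 hr had a limma adjusted p of 0.000118, and its size depends on the 0.5 read added to each count. At 8 hr there were 37 reads, 30 of them in the WT libraries through which *Ccl12* passed the filter.

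*Ccl3*, *Ccl4* and *Ccl5* encode inflammatory chemokines that attract monocytes, T cells and NK cells, and *Ccl3* and *Ccl5* bind CCR1. *Ccl3* was at 35.3 and 38.9 CPM in WT and 49.99 and 39.6 in S513A PECs at 0 hr. It rose to 1499 and 1122 CPM in WT and 1401 and 1637 in S513A PECs at 4 hr, and stood at 327 and 337 in WT and 269 and 349 in S513A PECs at 8 hr. The 3 times did not overlap. On the log2 scale the difference was 5.11 (SE 0.13, limma adjusted p = 1.98e-10) at 4 hr, 2.97 (SE 0.13) at 8 hr and -2.14 (SE 0.13, limma adjusted p = 4.74e-06) from 4 to 8 hr.

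*Ccl4* had the largest fitted rise of the 10 members at 4 hr and the largest fitted fall after it. It was at 4.35 and 5.35 CPM in WT and 6.80 and 5.75 in S513A PECs at 0 hr. At 4 hr the libraries gave 503 and 355 CPM in WT and 452 and 667 in S513A PECs, and at 8 hr 39.2 and 43.5 in WT and 34.0 and 49.4 in S513A PECs. The 3 times did not overlap here either. Against 0 hr the log2 difference was 6.46 (SE 0.17, limma adjusted p = 2.82e-10) at 4 hr, 2.91 (SE 0.17) at 8 hr and -3.55 (SE 0.17, limma adjusted p = 1.44e-06) from 4 to 8 hr, so the gain at 8 hr was 7.49-fold (95% interval 5.78 to 9.70) against 87.7-fold (67.7 to 114) at 4 hr.

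*Ccl5* was high at both stimulated times. At 0 hr it was at 18.0 and 14.3 CPM in WT and 35.1 and 35.9 in S513A PECs. The levels were 1163 and 1091 CPM in WT and 1417 and 1407 in S513A PECs at 4 hr, and 1306 and 1471 in WT and 1394 and 1654 in S513A PECs at 8 hr. Stimulated libraries lay far above those of 0 hr, and those of 4 and 8 hr overlapped. Its log2 difference was 5.72 (SE 0.09, limma adjusted p = 2.12e-11) at 4 hr and 5.92 (SE 0.09, limma adjusted p = 2.9e-11) at 8 hr. From 4 to 8 hr it was 0.20 (95% interval -0.0054 to 0.41, limma adjusted p = 0.145), and 0.33 (limma adjusted p = 0.0275) after quantile normalization. *Lck*, the listed marker of T and NK cells, which also make *Ccl5*, rose by 1.26 on the log2 scale at 4 hr to 1.15 to 2.16 CPM, and its part in the *Ccl5* level was not tested.

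*Ccl6* and *Ccl9* encode CCR1 ligands that myeloid cells make without stimulation, and both were abundant at 0 hr. *Ccl9* was at 783 and 538 CPM in WT and 572 and 651 in S513A PECs at 0 hr. It was at 3388 and 2517 CPM in WT and 2736 and 3496 in S513A PECs at 4 hr, and at 1809.9 and 1913 in WT and 1073 and 1522 in S513A PECs at 8 hr. The 3 times did not overlap, and the log2 differences were 2.26 (SE 0.16, limma adjusted p = 6.33e-07) at 4 hr, 1.29 (SE 0.16, limma adjusted p = 6.94e-05) at 8 hr and -0.96 (SE 0.16, limma adjusted p = 0.00166) from 4 to 8 hr.

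*Ccl6* was at 429 and 369 CPM in WT and 323 and 327 in S513A PECs at 0 hr. The 4 hr libraries gave 387 and 235 CPM in WT and 185 and 282 in S513A PECs, and the 8 hr libraries 206 and 165 in WT and 66.1 and 114 in S513A PECs. The 4 hr libraries overlapped both other times, and the 8 hr libraries all lay below those of 0 hr. The log2 difference was -0.45 (SE 0.21, limma adjusted p = 0.0851) at 4 hr, -1.51 (SE 0.21, limma adjusted p = 0.000139) at 8 hr and -1.05 (SE 0.21, limma adjusted p = 0.00406) from 4 to 8 hr. The 4 hr value passed the threshold after quantile normalization (-0.87, limma adjusted p = 0.00241) and without WT 4 hr replicate 1, S513A 4 hr replicate 2 or either S513A 8 hr library. The summed level of eosinophil markers, 3 of 7 listed, also went down with LPS. It was 16.0 to 18.8 CPM at 0 hr, 8.31 to 10.4 at 4 hr and 3.84 to 4.91 at 8 hr. Only 1 of these markers passed the filter, *Siglecf*, with log2 differences of -0.97 at 4 hr and -2.17 at 8 hr. The part of these markers in the *Ccl6* values was not tested.

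*Ccl22* encodes a ligand of CCR4 that attracts regulatory and helper T cells. It was at 1.71 and 1.81 CPM in WT and 1.71 and 2.22 in S513A PECs at 0 hr. At 4 hr it was at 18.1 and 18.6 CPM in WT and 24.7 and 18.3 in S513A PECs, and at 8 hr at 12.1 and 11.1 in WT and 19.4 and 15.8 in S513A PECs. The stimulated libraries all lay above those of 0 hr and overlapped each other. The log2 difference was 3.41 (SE 0.14, limma adjusted p = 6.48e-09) at 4 hr, 2.94 (SE 0.14, limma adjusted p = 2.93e-08) at 8 hr and -0.47 (SE 0.14, limma adjusted p = 0.0289) from 4 to 8 hr. The last was not called without WT 4 hr replicate 2, S513A 4 hr replicate 1, either WT 8 hr library or S513A 8 hr replicate 2, with adjusted p from 0.0551 to 0.100.

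*Ccl24* encodes an eotaxin, a ligand of CCR3 that attracts eosinophils, and was near the limit of counting. It had 15 and 14 reads in WT and 11 and 8 in S513A libraries at 0 hr. The counts were 28 and 7 in WT and 13 and 16 in S513A at 4 hr, and 13 and 25 in WT and 11 and 10 in S513A at 8 hr. The times overlapped, and the WT 4 hr replicates lay further apart than any other 2 libraries. The log2 difference was 0.59 (95% interval -0.29 to 1.46, limma adjusted p = 0.235) at 4 hr and 0.50 (-0.37 to 1.38, limma adjusted p = 0.332) at 8 hr, and neither passed the threshold with this spread between libraries. Without WT 4 hr replicate 2 the 4 hr value was 1.05 (limma adjusted p = 0.016).

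**Figure D2:**
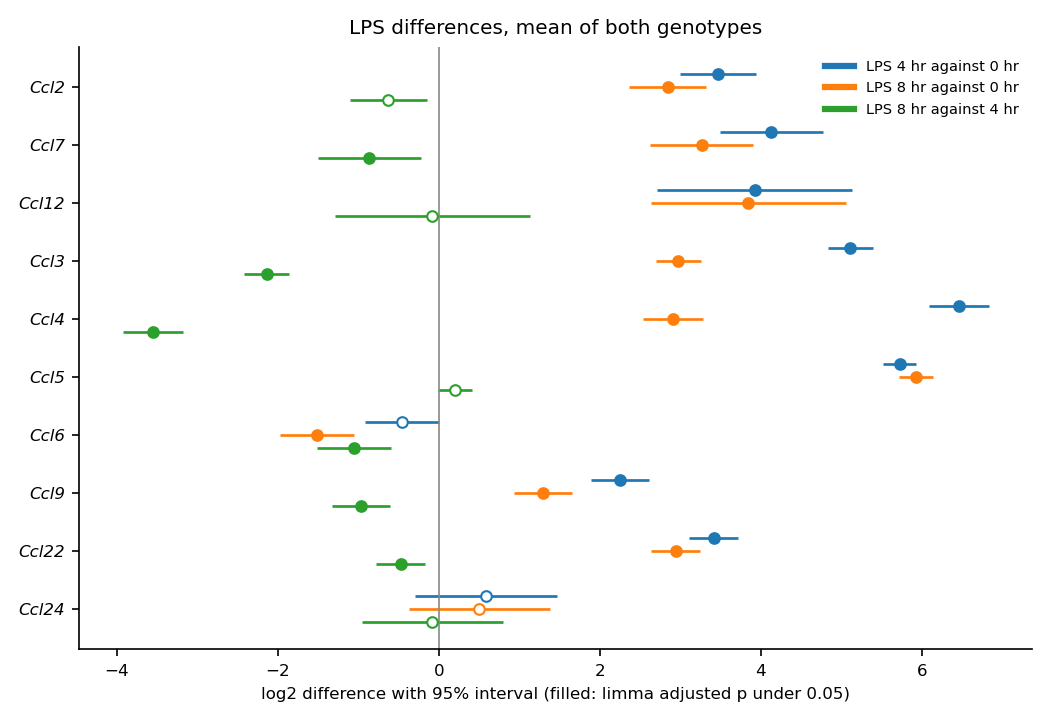
Log2 difference (x axis) of each gene (y axis) between LPS times, as the limma estimate over both genotypes with its 95% interval, in blue for 4 against 0 hr, orange for 8 against 0 hr and green for 8 against 4 hr. Filled points passed an adjusted p of 0.05: 8 at 4 hr, 9 at 8 hr with *Ccl6* on the lower side, and 6 from 4 to 8 hr, all lower. The *Ccl12* estimates against 0 hr depend on the 0.5 read added to counts at or near 0.

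The 10 genes together took up 0.1055% to 0.1475% of the reads on listed genes at 0 hr, 0.526% to 0.669% at 4 hr and 0.299% to 0.380% at 8 hr, so the times did not overlap. At 0 hr *Ccl9* held 55.2% to 61.2% of these chemokine reads and *Ccl6* 30.6% to 37.8%. At 4 hr *Ccl9* held 43.5% to 48.1%, *Ccl3* 20.7% to 22.3%, *Ccl5* 16.5% to 22.5% and *Ccl6* 2.94% to 5.49%. At 8 hr *Ccl9* held 37.2% to 48.2% and *Ccl5* 34.8% to 48.3%. In both S513A libraries of 8 hr, *Ccl5* held the larger share (48.3% and 43.9%, against 37.2% and 40.4% for *Ccl9*), and in both WT libraries *Ccl9* did (48.2% and 47.6%, against 34.8% and 36.6% for *Ccl5*). Whether these shares differed between genotypes was not tested.

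**Figure D3:**
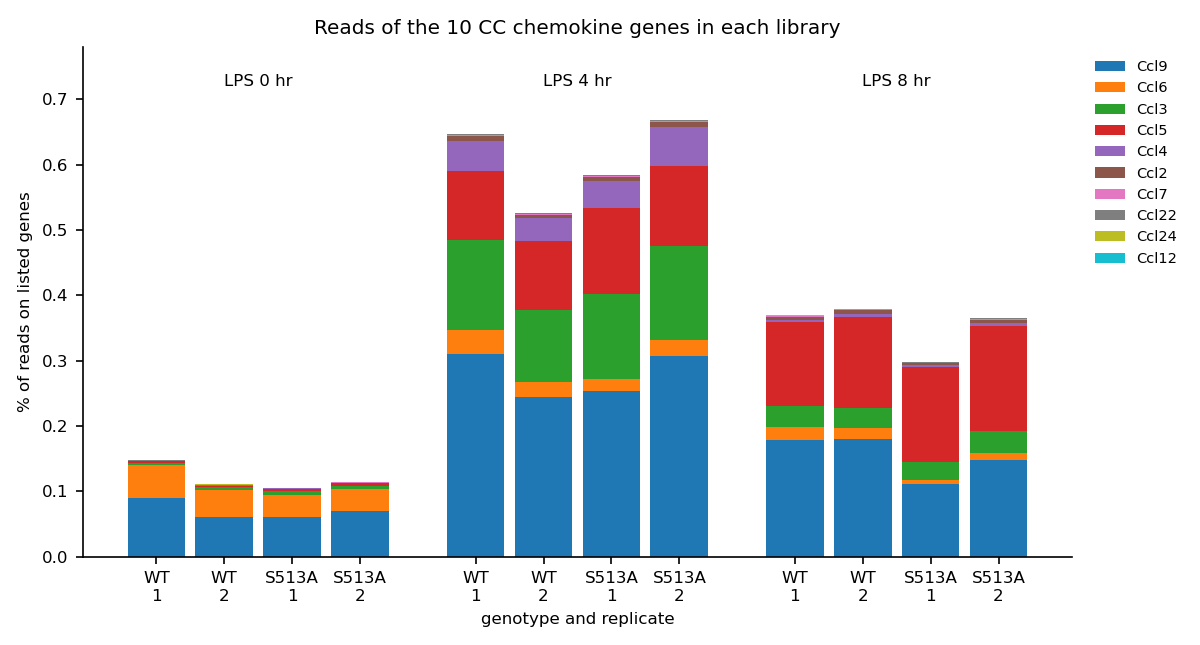
Share of the reads on listed genes (y axis, percent) taken by the 10 CC chemokine genes in each library (x axis, genotype above replicate number, by hours of LPS), with 1 colour per gene. The columns run from 0.1055% to 0.1475% at 0 hr and from 0.526% to 0.669% at 4 hr, with *Ccl9* and *Ccl6* as most of the column at 0 hr and *Ccl9* and *Ccl5* at 8 hr.

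Levels of different genes were compared as log2 CPM per kb of the longest protein-coding GENCODE transcript, as the mean ± SD of the 4 libraries of a time. At 0 hr *Ccl6* (7.96 ± 0.19) and *Ccl9* (7.71 ± 0.24) led and overlapped, followed by *Ccl3* (5.73 ± 0.21) and *Ccl5* (5.49 ± 0.67), which overlapped, and by *Ccl4* (3.06 ± 0.27) and *Ccl2* (2.97 ± 0.04), which also overlapped. *Ccl7*, *Ccl22* and *Ccl24* lay between -0.42 and -0.20 and overlapped, and *Ccl12* was last. At 4 hr the order was *Ccl5* (11.21 ± 0.19), *Ccl3* (10.84 ± 0.23), *Ccl9* (9.97 ± 0.23), *Ccl4* (9.51 ± 0.38), *Ccl6* (7.51 ± 0.45) and *Ccl2* (6.44 ± 0.36), in which *Ccl5* and *Ccl3* overlapped, as did *Ccl9* and *Ccl4*. At 8 hr *Ccl5* (11.41 ± 0.14) stood alone, *Ccl9* (9.00 ± 0.38) and *Ccl3* (8.70 ± 0.17) overlapped, and *Ccl6* (6.46 ± 0.72), *Ccl4* (5.96 ± 0.23) and *Ccl2* (5.81 ± 0.53) overlapped. *Ccl7* and *Ccl22* overlapped at all 3 times, and *Ccl12* and *Ccl24* overlapped at 4 and 8 hr.

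**Figure D4:**
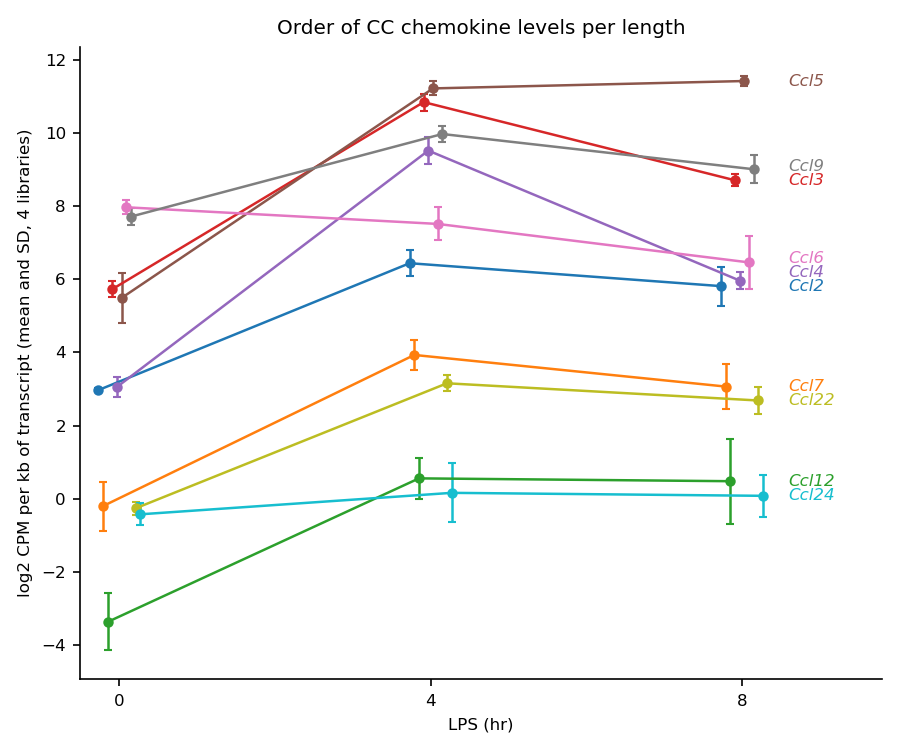
Level of each gene as log2 CPM per kb of transcript (y axis, mean and SD of the 4 libraries of a time) against hours of LPS (x axis, points shifted sideways so that bars can be seen). *Ccl6* and *Ccl9* lead at 0 hr with 7.96 and 7.71, and *Ccl5* leads at 4 and 8 hr with 11.21 and 11.41.

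The pattern of each member over the 12 libraries was set beside 4431 other genes whose group means spanned at least 1 log2 unit. The 2 genes with the highest Pearson correlation were *Il18* (r = 0.993) and *AA467197* (0.991) for *Ccl2*, *Lztfl1* (0.996) and *Stip1* (0.995) for *Ccl3*, *Ripk2* (0.995) and *Pdpn* (0.995) for *Ccl4*, and *Sqstm1* (0.997) and *Traf2* (0.997) for *Ccl5*. They were *Exoc3l4* (0.987) and *Gm14005* (0.986) for *Ccl7*, *Cebpd* (0.991) and *Samsn1* (0.979) for *Ccl9*, and *Usp25* (0.995) and *Ptpre* (0.995) for *Ccl22*. *Ccl6* was nearest to *C1qa* (0.970), a complement subunit, and *Ctsl* (0.966), a lysosomal protease. *Ccl12* was nearest to *Tspan3* and *Mmp2* (both 0.965), and *Ccl24* had no close neighbour (*Pmvk*, 0.761). Among members, r was 0.988 between *Ccl3* and *Ccl4*, 0.974 between *Ccl2* and *Ccl7*, 0.973 between *Ccl5* and *Ccl22* and -0.174 between the neighbours *Ccl6* and *Ccl9*. These correlations describe libraries that share their LPS times.

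Among the CC chemokine receptors, *Ccr1* and *Ccr2*, which bind several of the induced members, were lower at 4 hr, with log2 differences of -1.17 and -1.35, and *Ccr7* and *Ccr9*, receptors of homing T cells and dendritic cells, were higher, with 1.72 and 3.68. At 8 hr *Ccr1* and *Ccr2* were also lower (-1.05 and -1.84) and *Ccr7* and *Ccr9* higher (2.38 and 3.61). *Ccrl2*, an atypical receptor that does not signal, was higher by 3.17 at 4 hr and 2.33 at 8 hr. Of 11 other CC ligands, *Ccl25* and *Ccl27a* were tested and neither was called at 4 hr. As the mean of both genotypes, *Ccl27a* was lower at 8 hr (-1.62). Its S513A minus WT difference at 8 hr was -2.87 (limma adjusted p = 0.395). Of the 2 ligands, 0 were called lower at 8 hr within WT and 1 within S513A PECs, where 14.9% and 19% of all genes were. In the interaction of genotype and LPS at 8 hr, 0 of the 2 were called, so these counts show no genotype difference.

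Of 10 tested regulators of mRNA decay, 5 were higher and 3 lower at 4 hr, beside 29.1% and 26.7% of all genes tested. *Zc3h12a* itself rose by 2.80 and its relative *Zc3h12c* by 3.14 on the log2 scale, *Zfp36*, which encodes the AU-rich element binding protein TTP, by 0.83, and *Zfp36l1* fell by 2.09. All 12 genes of the NF-kappaB feedback list and all 11 tested interferon response genes were higher at 4 hr. From 4 to 8 hr, 10 of the 12 feedback genes and 5 of the 11 interferon response genes were lower, and 1 and 2 were higher, beside 12.8% of all genes in each direction. Of 12 genes of alternative activation, 2 were higher and 6 lower at 4 hr. These counts are a description of each list.

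The comparison of S513A with WT PECs asked whether the knock-in changes chemokine mRNA before or after LPS. *Ccl5* was higher in S513A PECs at 0 hr, by 2.21-fold, and no other member passed the test at any time. At 8 hr *Ccl6*, *Ccl7* and *Ccl9* were at lower values and *Ccl22* at higher values in both S513A libraries than in both WT libraries, and none of these differences passed the threshold. Most genes tested were likewise without overlap at that time.

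At 0 hr, 1 of the 10 members was called, where 0.0337% of all genes tested were. Both S513A libraries (35.1 and 35.9 CPM) lay above both WT libraries (18.0 and 14.3), from 399 and 428 reads against 258 and 186. The log2 difference of *Ccl5* was 1.14 (SE 0.13, 95% interval 0.85 to 1.44, limma adjusted p = 0.0168). It was no longer called without WT 0 hr replicate 2 (0.98, limma adjusted p = 0.164), without either S513A 0 hr library (adjusted p 0.200 and 0.161) or without either WT 8 hr library (0.0518 in each), nor with a further pseudocount of 1 CPM (0.0585), a replicate block (0.0632), voom weights (0.0713) or a prior without trend (0.135). *Ccl5* is also made by T and NK cells, whose 1 listed marker, *Lck*, was at 0.523 and 1.35 CPM in WT and 0.658 and 0.713 in S513A PECs at 0 hr. The other 9 members had log2 differences from -0.56 for *Ccl12* to 0.80 for *Ccl7*. The genotypes did not overlap for 5 of the 10 members and for 57.5% of all genes tested, so the members were near the background. Beside *Ccl5* they were *Ccl3* and *Ccl4* with S513A above WT and *Ccl6* and *Ccl24* with S513A below WT. Summed macrophage, neutrophil, dendritic cell and mast cell markers overlapped between genotypes at 0 hr, as did *Lck*. Summed B cell, mesothelial, eosinophil and resident peritoneal macrophage markers lay apart. B cell markers were at 5.30 to 7.00 CPM in WT and 3.44 to 4.56 in S513A PECs. Mesothelial markers, none of which passed the filter, were at 2.15 to 3.41 and 0.923 to 1.76. Eosinophil markers were at 16.0 to 17.0 and 18.0 to 18.8, and the part of these markers in the *Ccl5* value was not tested. The 11 tested interferon response genes had a median S513A minus WT log2 difference of 0.49 at 0 hr, beside 0.005 over all genes. Their median was 0.53 at 4 hr and 0.18 at 8 hr. At each time 0 of the 11 were called, and their relation to the *Ccl5* value was not tested.

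At 4 hr, limma called 0 members, where 0.0168% of all genes were called, 1 member had an unadjusted p below 0.05 and voom weights also called 0. That member was *Ccl5*, with 0.33 (95% interval 0.03 to 0.62, limma adjusted p = 0.622) and both S513A libraries above both WT libraries. It was the 1 member without overlap, where 28.2% of all genes had none. At 8 hr, limma and voom weights again called 0, where 0.0337% of all genes were called, and 5 members had an unadjusted p below 0.05, as had 1487 of all 11885 genes.

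Those 5 members had the same limma adjusted p of 0.395 at 8 hr. The log2 differences were -1.09 for *Ccl6* (95% interval -1.74 to -0.44), -0.95 for *Ccl7* (-1.85 to -0.05), -0.54 for *Ccl9* (-1.05 to -0.03), -1.93 for *Ccl12* (-3.65 to -0.22) and 0.59 for *Ccl22* (0.16 to 1.02). In each of the 5 the 2 genotypes did not overlap, nor did they for *Ccl24* (-0.73, limma adjusted p = 0.526). The groups were thus apart for 6 of 10 members, where 53.6% of all genes were. The *Ccl12* value, from 30 WT and 7 S513A reads, is no support for a difference, because its WT libraries alone brought the gene past the filter. For *Ccl5* at 8 hr the libraries overlapped and the difference was 0.13 (-0.16 to 0.42). *Ccl2*, *Ccl3* and *Ccl4* overlapped between genotypes at 8 hr, with -0.55 (-1.22 to 0.13), -0.11 (-0.51 to 0.28) and -0.01 (-0.54 to 0.52).

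The summed level of 6 resident peritoneal macrophage markers, all listed, was 28.0 to 33.7 CPM in WT and 19.7 to 24.7 in S513A PECs at 0 hr, 41.5 to 49.2 and 23.3 to 30.2 at 4 hr, and 49.1 to 58.0 and 26.05 to 30.7 at 8 hr. Of the 6, *Cxcl13* alone was called between genotypes, at 8 hr (-2.56, limma adjusted p = 0.0119) and in the mean of times. The others ranged at 8 hr from -0.88 for *Timd4* to 0.70 for *Garnl3*, and the median of the 6 was -0.26. The summed macrophage markers at 8 hr were 23743 and 24790.3 CPM in WT and 16754 and 22443 in S513A PECs. Summed dendritic cell markers, summed mast cell markers and *Lck* overlapped between genotypes at 8 hr. Summed neutrophil markers were at 624 to 679 CPM in WT and 489 to 556 in S513A PECs, and eosinophil markers at 4.79 to 4.91 and 3.84. B cell markers were at 5.32 to 8.87 and 4.23 to 5.09, and mesothelial markers at 1.23 to 1.43 and 0.541 to 0.949. The part of these differences in the values of *Ccl6*, *Ccl7*, *Ccl9*, *Ccl12* and *Ccl22* was not tested.

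**Figure D5:**
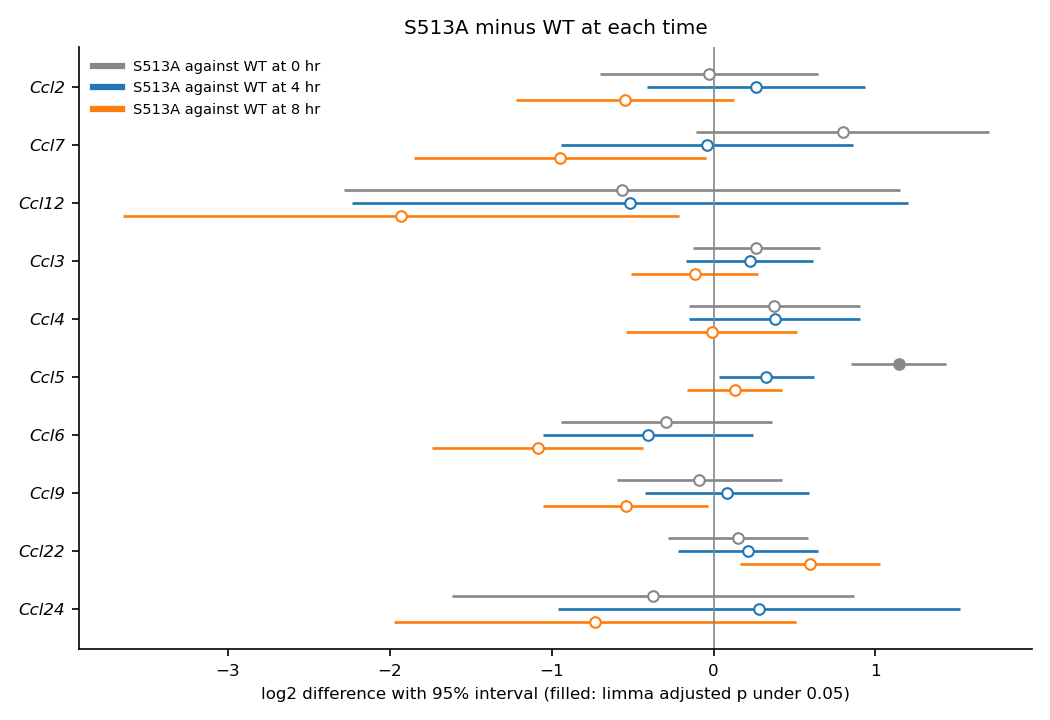
Log2 difference S513A minus WT (x axis) of each gene (y axis), as the limma estimate with its 95% interval from 2 libraries per genotype, in grey at 0 hr, blue at 4 hr and orange at 8 hr. The filled point, *Ccl5* at 0 hr with 1.14, is the one that passed an adjusted p of 0.05.

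Averaged over the 3 times, 1 member was called, where 0.0673% of all genes were: *Ccl5*, with 0.53 (95% interval 0.36 to 0.70, limma adjusted p = 0.0465). Its differences were 1.14, 0.33 and 0.13 at 0, 4 and 8 hr. The call was lost with the filter at a mean of 5 CPM (0.0517), a replicate block (0.0965) or a prior without trend (0.158), and in 9 of the 12 refits that left out 1 library. It was kept without WT 0 hr replicate 1, WT 4 hr replicate 1 or S513A 8 hr replicate 1. The other members ranged from -1.003 for *Ccl12* to 0.32 for *Ccl22*.

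The response to LPS was then compared between genotypes through the interaction. No member was called at 4 hr or at 8 hr, by limma or with voom weights, and 0% of all genes were called at either time. At an unadjusted p below 0.05 there were 1 member and 144 of all genes at 4 hr, and 2 members and 2405 of all genes at 8 hr. At 4 hr *Ccl5* rose by 6.13 in WT and 5.31 in S513A PECs, a log2 difference of -0.82 (SE 0.19, limma adjusted p = 1.00), and by 6.43 and 5.42 at 8 hr, a difference of -1.01 (SE 0.19, limma adjusted p = 0.193). Without S513A 8 hr replicate 2 the latter was -1.13 and passed the threshold (limma adjusted p = 0.0306). At 8 hr *Ccl7* rose by 4.14 in WT and 2.39 in S513A PECs, a difference of -1.74 (SE 0.58, limma adjusted p = 0.197), from 5 to 13 reads per library at 0 hr. Within each genotype, the 8 members that rose at 4 hr were called higher in WT PECs (22.6% of all genes) and likewise in S513A PECs (23.1%). The 8 include *Ccl12*, whose fitted rise depends on the 0.5 read added to its 0 or 1 reads at 0 hr. *Ccl6* was called lower at 8 hr in both, with -1.11 in WT and -1.90 in S513A, where 14.9% and 19% of all genes were. From 4 to 8 hr, 3 members were called lower within WT (*Ccl3*, *Ccl4* and *Ccl22*) and 6 within S513A PECs (*Ccl2*, *Ccl3*, *Ccl4*, *Ccl6*, *Ccl7* and *Ccl9*), where 7.49% and 8.99% of all genes were, and the difference between genotypes over this interval was not tested.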

How the data were processed

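RNA-seq of PECs was analysed in 12 libraries. Per the study's methods and processing notes, the authors mapped paired-end reads as unstranded to mm10 with HISAT2 and counted them with featureCounts 1.6.3. The deposited values are log2 CPM of counts plus 0.5 read, a form read from the values, since the normalizing program is not given in the sources used here. Whole reads were recovered from them to within 0.00103 read, and 9525979 to 12439960 reads per library set the precision. limma 3.58.1 (R 4.3.3), with a prior following the mean, was fitted to the 6 groups over 11885 genes that reached 1 CPM in 2 or more libraries, two-sided, with Benjamini-Hochberg adjustment over all of them. It was tested on simulated data in which genes and libraries varied independently. In the real data 1 component shared by genes held 39.2% of the variance between replicates, so the simulation does not check the genotype calls. Intervals for read ratios cover counting error only. Members and gene lists were chosen with earlier results of these data known. All 10 members were named, with the 2 genes most correlated to each. Lists gave counts and the members that passed. Python 3.11.15, scipy 1.17.1 and Biopython 1.88 handled values and sequences, from RefSeq GRCm38.p6 promoters and GENCODE vM21 transcripts, locally aligned with match 1, mismatch -1 and gap penalties of 3 and 1. Alternatives were other filters, pseudocount, scaling, priors, voom weights, replicate blocks, the compared libraries alone and each library left out. No protein sequence was used here, and 1 gene of the receptor list is not reported here.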

Additional observations from a re-analysis of the deposited data

How the results depend on the processing

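Each of the 12 libraries was left out in turn, and filter, pseudocount, scaling, prior, weights, block and libraries fitted were varied. None of the 25 calls of members changed sign, and 21 passed the threshold in every refit. The exceptions were *Ccl5* at 0 hr and in the mean of times, and *Ccl7* and *Ccl22* from 4 to 8 hr. The 21 include the *Ccl12* calls at 4 and 8 hr, which were not tested in the refit with the filter at 5 CPM. The *Ccl12* call at 8 hr uses the libraries that brought the gene past the filter, and is no support. Leaving out 1 library gave 8 to 9 members called from 0 to 4 hr, 4 to 6 from 4 to 8 hr, 0 to 1 at 0 hr between genotypes and in the mean of times, and 0 to 1 (*Ccl5*) for the interaction at 8 hr. The count between genotypes at 0 hr went from 1 to 0 with the further pseudocount, the replicate block, the prior without trend and voom weights, and in the mean of times from 1 to 0 with the filter at 5 CPM, the replicate block and the prior without trend. From 4 to 8 hr, *Ccl12* changed from -0.08 to 0.0302 with the further pseudocount and ran from -0.37 to 0.21 when 1 library was left out, and *Ccl24* from -0.55 to 0.38. Of the 46 member values between genotypes with an unadjusted p of at least 0.05, 24 changed sign in some refit and 0 were called in any. Why these values moved was not tested.

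Replicate numbers were checked for pairing through the deviations of same-numbered libraries from their group means: the correlations were -0.10 to 0.42 within a genotype and -0.37 to 0.14 between genotypes, which does not establish a pairing, while the source of the libraries is not given in the labels. Within S513A all 3 correlations were above 0, the highest between 4 and 8 hr. With the replicate block 8, 9 and 6 members were called in the 3 LPS comparisons and 0 between genotypes at each time. With a block of genotype and number together, *Ccl6* at 4 hr (limma adjusted p = 0.0163) and *Ccl2* from 4 to 8 hr (0.0272) were also called and *Ccl7* from 4 to 8 hr (0.0519) was not. That block could not be estimated for the genotype comparisons, and the mean of times has no fit on the compared libraries alone. With 2 libraries per group, and with 0 to 17 reads for *Ccl12* and 7 to 28 for *Ccl24*, small differences were not detectable.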
